A study of Mus musculus with 8 samples.

Results

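The genes described here are 35 genes of the lysosome: 10 lysosomal peptidases, 7 glycosidases, 5 genes of lysosomal lipid breakdown and cholesterol export, 5 genes of the lysosomal membrane, 5 genes of the acid pump, and 3 genes of lysosomal regulation and sorting. They were chosen by gene symbol for their place in the lysosome, with earlier results of these data known. All 35 were found among the 22520 protein-coding genes of the expression table. The question asked of them was how the lysosome follows the loss of an endocytic receptor, LRP1 (low-density lipoprotein receptor-related protein 1), which carries ligands from the surface of the endothelial cell (EC) into endosomes.

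mRNA-seq was performed with liver ECs of C57BL/6 mice at postnatal day 14. The knockout group (LRP1 eKO, 4 libraries) carried floxed Lrp1 alleles with 1 copy of the tamoxifen-inducible Cdh5-CreER recombinase (LRP1 f/f; Cdh5-CreER+/-), and the control group (WT, 4 libraries) came from littermates with the same floxed alleles and no recombinase (LRP1 f/f; Cdh5-CreER-/-). The labels call the cells liver microvesicular cells, and the study's methods describe selection of microvascular ECs with PECAM-1 antibody on magnetic beads. Because no WT mouse carried CreER, an effect of the recombinase itself and an effect of Lrp1 loss cannot be told apart. The Cdh5 promoter is active in ECs of every organ, so loss of the receptor was not limited to the liver. How CreER was activated, and whether each library came from 1 animal, is not given in the sources used here; the p-values therefore measure the spread between these 8 libraries, which may be technical in part.

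Lrp1 (chr10:127538161-127621148, minus strand, mm10), the targeted gene, had a quantile-normalized signal of 65.5 ± 13.3 in WT (mean ± SD, n = 4) and 4.41 ± 1.65 in LRP1 eKO, which was 6.74% of WT. Markers that define ECs were low in both groups: the summed signal of 10 pan-endothelial genes was 33.9 to 38.7 in WT and 41.9 to 63.6 in LRP1 eKO, Pecam1 averaged 2.09 and 3.02, and 2 of the 10 genes were below 1 in every library. Of the 7 tested, Eng (log2 fold change 0.91) and Cdh5 (0.68) were called higher in LRP1 eKO, and 5 were not called. Of the genes not tested, Cldn5 was lower without overlap of the groups (1.08 and 0.67 on average). Tek and Erg had higher means with overlap. The summed signal of 9 liver sinusoidal endothelial markers was 9.38 to 13.4 in WT and 10.6 to 36.2 in LRP1 eKO. Of the 5 tested, Oit3 (1.11) and Flt4 (0.47) were called higher, and 3 were not called. The summed signal of 10 markers of stellate cells and fibroblasts was 2058 to 2261 in WT and 2188 to 2487 in LRP1 eKO. These sums were far above those of both endothelial lists, although sums over different genes are not shares of cells. They came mostly from Acta2, Dcn, Col1a1 and Col3a1, while Lrat and Reln were below 1 in every library. How much of the RNA came from cells other than ECs was not tested. Which cells the signals of Lrp1 and of the lysosomal genes came from was not tested. Of the 8 stellate cell and fibroblast markers tested, Acta2 (811 and 1066 on average) was called higher, Dcn (563 and 457) and Lum (28.7 and 17.2) were called lower, and 5 were not called. The summed signal of 16 macrophage and Kupffer cell markers was 109 to 218 in WT and 47.3 to 739 in LRP1 eKO, with the lowest value of all 8 libraries in LRP1 eKO replicate 2. All 7 tested hepatocyte markers and all 6 tested skeletal muscle markers were lower in LRP1 eKO. The summed hepatocyte signal was 1524 to 1586 in WT and 626 to 913 in LRP1 eKO, most of it from Trf (1387 and 733 on average). The summed skeletal muscle signal was 48.1 to 76.15 in WT and 14.7 to 16.2 in LRP1 eKO. In each of these lists 2 genes were below 1 in every library. In RNA that may be mixed, fewer cells of a type and less RNA per cell cannot be told apart.

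Lysosomes degrade proteins, sugars and lipids that reach them by endocytosis and autophagy. Their hydrolases work at acid pH, which a proton pump, the vacuolar ATPase (V-ATPase), maintains, and most of the soluble enzymes are sorted from the Golgi by mannose 6-phosphate receptors. Many lysosomal genes share a promoter element with the core CACGTG, to which the transcription factor TFEB and its relatives bind.

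Most of the called lysosomal genes were higher in LRP1 eKO libraries, by small amounts. Each gene was tested with limma on log2(signal + 1) across the 11391 genes whose signal reached 1 in 4 or more of the 8 libraries, and a gene was called at a Benjamini-Hochberg adjusted p below 0.05 over all of them. All 35 lysosomal genes passed this filter. In LRP1 eKO, 19 of the 35 were called higher (54.3%, against 19.0% of all genes tested) and 1, Tfeb, was called lower (2.86%, against 22.2%), while 15 were not called. The log2 fold change of the 35 genes ranged from -0.38 to 0.70 with a median of 0.20, and the median of all genes tested was -0.0095. None of the 35 was called at a 2-fold change or more, a size that 1.66% of all genes tested reached, and none reached 2-fold at an unadjusted p below 0.05 in limma either. The mean log2 signal was higher in LRP1 eKO for 27 of the 35, against 48.4% of all genes tested. The 4 LRP1 eKO libraries all lay above the 4 WT libraries for 18 of the 35, against 20.0% of all genes tested, and all lay below them for 2 (Tfeb and Glb1), against 22.5%. For each of these 20 genes the exact two-sided permutation test gave p = 0.029, the smallest that 4 libraries against 4 allow.

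**Figure D1:**
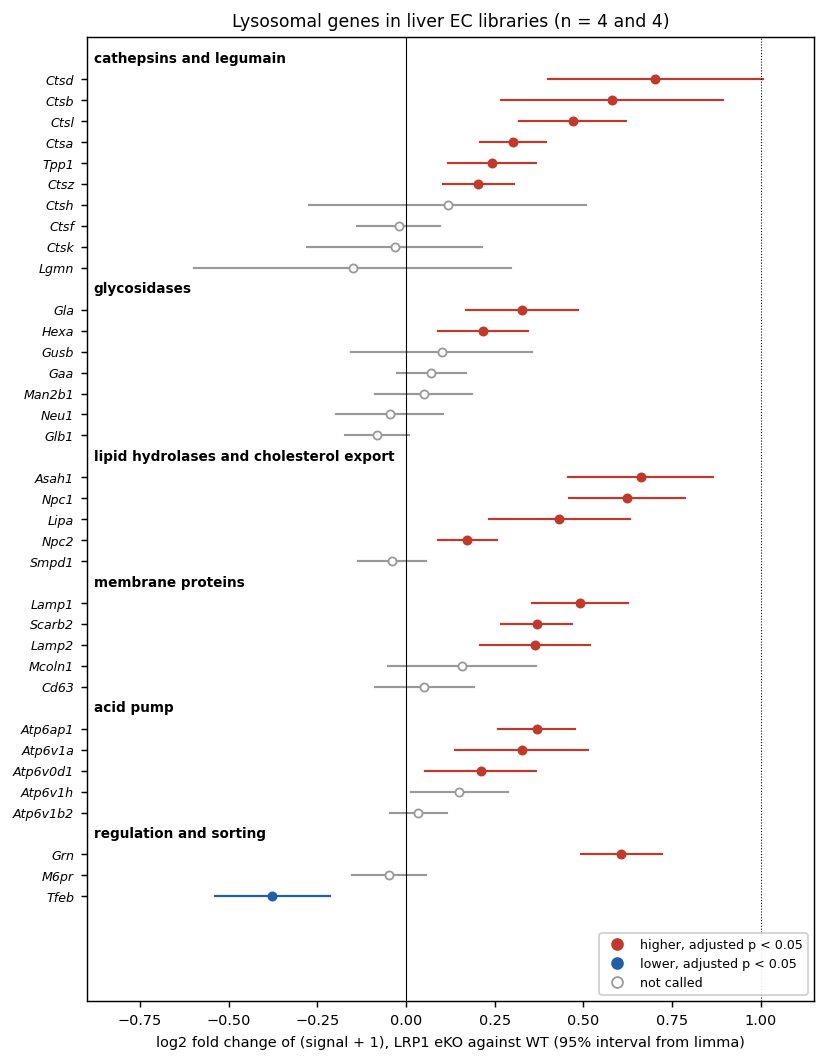
Log2 fold change of (signal + 1) in LRP1 eKO against WT for the 35 lysosomal genes, grouped by role; points are limma estimates (n = 4 and 4 libraries), lines are 95% intervals, filled points have an adjusted p below 0.05 and the dotted line marks 2-fold. Of the filled points 19 lie right of 0 and 1, Tfeb, lies left of it, and every estimate is below 2-fold.

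By role, 4 of the 5 genes of lipid breakdown and cholesterol export were called higher, as were 6 of the 10 peptidases, 3 of the 5 membrane genes, 3 of the 5 pump genes and 2 of the 7 glycosidases. Of the 3 genes of regulation and sorting, Grn was called higher, Tfeb lower and M6pr was not called.

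Promoter sequence was available in RefSeq (GRCm38.p6) for 28 of the 35 genes, as a window from 250 bases before to 50 bases after each annotated start site. For 26 of the 32 windows of these genes, the 30 bases from the start site occurred in a GENCODE transcript of the gene. The start sites of the remaining windows were not matched in this way. The palindromic core CACGTG was found in the window of 12 of the 28 (42.9%), against 8.09% of all 27025 genes with a window and 12.3% of the 8381 genes with a window that were also tested here. The longer form TCACGTG, which contains the core, was found on either strand in 10 of the 28 (35.7%), against 4.29% of all genes and 7.39% of tested genes. These shares describe the letters in the windows, not bound sites.

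The stretches that hold the core are shown for 6 genes called higher, so that the element can be read beside their values; capitals mark CACGTG, and each stretch is written 5′ to 3′ on the strand of the gene. A single stretch is given per gene, although Ctsd, Gla and, among the uncalled genes that follow, Mcoln1 each held another. The position of each follows in GRCm38.p6 with what the annotation places there. They are Lamp1 (chr8:13159088-13159160, plus strand, between genes, ending 1 base before the start site), Ctsd (chr7:142387908-142387937, minus strand, in an exon of Ctsd), Ctsa (chr2:164833749-164833772, plus strand, in an exon of another Ctsa transcript), Ctsl (chr13:64370739-64370768, minus strand, in an exon of Ctsl), Atp6v1a (chr16:44139373-44139402, minus strand, in an intron of Atp6v1a) and Gla (chrX:134601215-134601244, minus strand, in an exon of the neighbouring Hnrnph2). The Lamp1 stretch held 4 cores within 73 bases.
Lamp1: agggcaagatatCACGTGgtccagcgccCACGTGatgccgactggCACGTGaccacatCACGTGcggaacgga
Ctsd: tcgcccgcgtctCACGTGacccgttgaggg
Ctsa: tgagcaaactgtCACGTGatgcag
Ctsl: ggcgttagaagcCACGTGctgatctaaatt
Atp6v1a: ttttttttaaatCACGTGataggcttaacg
Gla: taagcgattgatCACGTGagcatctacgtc

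The same core was present beside genes that were not called, which are shown for comparison. They are Glb1 (chr9:114401018-114401047, plus strand, between genes), Gaa (chr11:119267811-119267840, plus strand, between genes), Ctsf (chr19:4855074-4855103, plus strand, between genes), Lgmn (chr12:102439124-102439153, minus strand, in an intron of Lgmn) and Mcoln1 (chr8:3500462-3500491, plus strand, in an exon of Mcoln1).
Glb1: ctgcttctgagtCACGTGgcctacagaggc
Gaa: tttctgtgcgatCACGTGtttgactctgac
Ctsf: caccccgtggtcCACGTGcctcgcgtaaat
Lgmn: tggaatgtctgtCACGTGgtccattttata
Mcoln1: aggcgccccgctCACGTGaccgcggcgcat

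With Atp6v0d1 added, whose core lies across the start site and is not printed, 7 of the 16 genes called higher that had a window held CACGTG, and 5 of the 11 uncalled genes that had a window did. The window of Tfeb held none. The core thus occurred in both sets of genes.

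In what follows, library values are listed in the order of replicates 1 to 4. Among the lysosomal peptidases, the largest differences were those of Ctsd and Ctsb. Ctsd (chr7:142375911-142388038, minus strand) encodes cathepsin D, the main aspartic protease of the lysosome. Ctsd signal was 729, 763, 794 and 621 across WT libraries and 1381, 896, 1381 and 1127 across knockout libraries. The groups did not overlap, but LRP1 eKO replicate 2 lay much closer to WT than the other 3 knockout libraries did. The mean was 727 ± 75.2 in WT and 1197 ± 233 in LRP1 eKO (165% of WT), a log2 fold change of 0.70 (SE 0.14, adjusted p = 0.0029, limma). Ctsb (chr14:63122462-63145923, plus strand) encodes cathepsin B, a cysteine protease. Ctsb signal was 294, 305, 306 and 272 across WT libraries and 534, 326, 528 and 407 across knockout libraries. Replicate 2 was again the lowest knockout library, only slightly above the highest WT library. The log2 fold change of Ctsb was 0.58 (SE 0.14, adjusted p = 0.0090).

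Ctsl (chr13:64359337-64370890, minus strand) encodes cathepsin L, a cysteine endopeptidase. Ctsl signal was 837, 871, 929 and 798 across WT libraries and 1278, 1063, 1245 and 1175 across knockout libraries. All knockout libraries were above all WT libraries, with a log2 fold change of 0.47 (SE 0.07, adjusted p = 0.00059). Ctsa, whose product is the serine carboxypeptidase that also protects β-galactosidase and neuraminidase, averaged 203 ± 5.99 in WT and 251 ± 8.72 in LRP1 eKO (log2 fold change 0.30, adjusted p = 0.00046). Tpp1, which encodes tripeptidyl peptidase 1, averaged 81.0 ± 5.15 and 95.9 ± 4.31 (0.24, adjusted p = 0.0069). Ctsz, which encodes the carboxypeptidase cathepsin Z, averaged 187 ± 4.68 and 215 ± 9.84 (0.20, adjusted p = 0.0054). These 3 genes also showed no overlap between the groups, and in Ctsa and Tpp1 the highest knockout library was replicate 2, the library that was lowest for Ctsd, Ctsb and Ctsl.

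Ctsh, Ctsf, Ctsk and Lgmn were not called. The aminopeptidase cathepsin H gene, Ctsh, had a signal of 17.7 to 19.7 in WT and of 12.9 in LRP1 eKO replicate 2, but of 21.4 to 25.8 in the other 3 knockout libraries. Its log2 fold change of 0.12 had a 95% interval of -0.27 to 0.51. Lgmn, which encodes the asparaginyl endopeptidase legumain, had a signal of 151 to 159 in WT, of 87.5 in LRP1 eKO replicate 2, and of 134 to 184 in the other knockout libraries. Its log2 fold change was -0.15 (95% interval -0.60 to 0.30). The spread of Lgmn and Ctsh thus came mostly from the knockout group and within it from replicate 2. Ctsk, which encodes the collagen-degrading cathepsin K, differed by -0.03 (-0.28 to 0.22), and Ctsf, which encodes the cysteine protease cathepsin F, by -0.02 (-0.14 to 0.10).

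**Figure D2:**
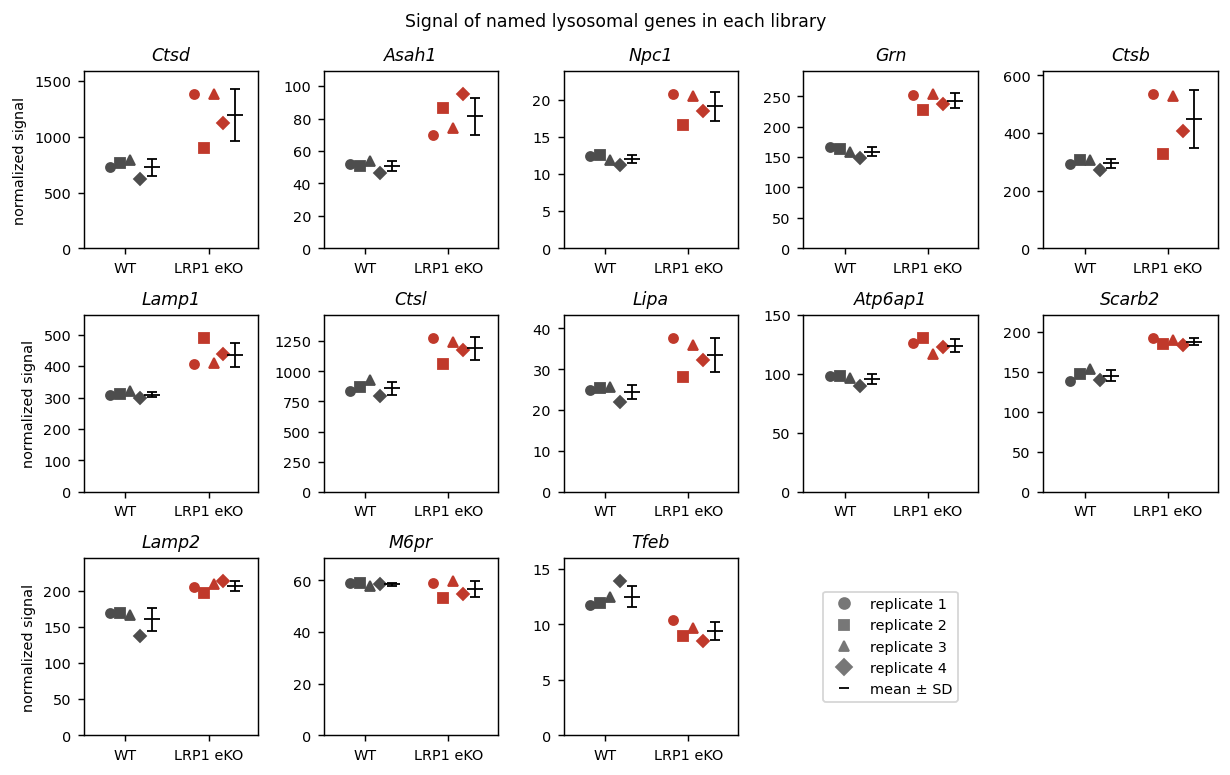
Quantile-normalized signal of 13 lysosomal genes in each library, from 0 on a linear axis; symbols mark the replicate numbers and black bars give mean ± SD (n = 4 per group). For the genes other than M6pr the groups do not overlap, and LRP1 eKO replicate 2 (square) is the lowest knockout library for Ctsd, Ctsb, Ctsl, Lipa, Npc1, Lamp2 and Grn but the highest for Lamp1 and Atp6ap1.

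Of the genes of lysosomal lipid breakdown and cholesterol export, Smpd1 alone was not called. Asah1 (chr8:41340197-41374773, minus strand) encodes acid ceramidase, which cleaves ceramide to sphingosine. Asah1 signal was 52.1, 50.9, 53.7 and 46.6 across WT libraries and 69.9, 86.6, 74.2 and 94.96 across knockout libraries. Every knockout library was above every WT library (160% of WT on average, log2 fold change 0.66, SE 0.09, adjusted p = 0.00046). Lipa (chr19:34492318-34527474, minus strand) encodes lysosomal acid lipase, which frees cholesterol and fatty acids from endocytosed lipoproteins. Lipa signal was 24.8, 25.5, 25.7 and 21.9 across WT libraries and 37.7, 28.2, 35.9 and 32.2 across knockout libraries. The log2 fold change of Lipa was 0.43 (SE 0.09, adjusted p = 0.0042), with replicate 2 the lowest of the knockout libraries.

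Both genes of cholesterol export were higher, by unequal amounts. NPC2 binds cholesterol in the lumen of the lysosome and hands it to NPC1 in the membrane. Npc1 (chr18:12189692-12236400, minus strand) had a signal of 12.4, 12.5, 11.9 and 11.2 across WT libraries and 20.7, 16.6, 20.5 and 18.4 across knockout libraries. The mean of Npc1 in LRP1 eKO was 159% of WT (log2 fold change 0.62, SE 0.07, adjusted p = 0.00017), with no overlap of the groups. Npc2 averaged 236 ± 7.12 in WT and 267 ± 1.25 in LRP1 eKO (0.17, adjusted p = 0.0051). Replicates 2, 3 and 4 of LRP1 eKO had the same Npc2 value, 266, because quantile normalization gives genes of equal rank equal values, so the SD of this group understates its spread. At 4 significant digits, equal values in 2 or more of the 8 libraries of both groups occurred for 7 of the 35 genes. Some of these may be equal only by rounding. Smpd1, which encodes acid sphingomyelinase, was not called (-0.04, 95% interval -0.14 to 0.06).

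Of the 7 glycosidase genes, Gla and Hexa were called, both higher. Gla, which encodes α-galactosidase A, averaged 15.9 ± 1.74 in WT and 20.1 ± 0.64 in LRP1 eKO (log2 fold change 0.33, adjusted p = 0.0052). Hexa, which encodes the alpha subunit of β-hexosaminidase, averaged 122 ± 1.24 and 142 ± 11.6 (0.22, adjusted p = 0.014). Groups did not overlap for either gene. The other 5 glycosidase genes were not called. These were Gaa, for the glycogen-degrading acid α-glucosidase, with 0.07 (95% interval -0.03 to 0.17), Gusb, for β-glucuronidase, with 0.10 (-0.16 to 0.36), Man2b1, for lysosomal α-mannosidase, with 0.05 (-0.09 to 0.19), and Neu1, for the lysosomal sialidase, with -0.05 (-0.20 to 0.10). Glb1, for β-galactosidase, was 46.3 to 47.4 in WT and 42.1 to 45.5 in LRP1 eKO. These ranges did not overlap and lay on the low side in LRP1 eKO, yet the log2 fold change of -0.08 (-0.17 to 0.01) did not pass the test (adjusted p = 0.13).

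Lamp1, Lamp2 and Scarb2 encode abundant proteins of the lysosomal membrane, and all 3 genes were higher. Lamp1 (chr8:13159161-13175338, plus strand) had a signal of 307, 310, 322 and 300 across WT libraries and 407, 490, 411 and 438 across knockout libraries. Its log2 fold change was 0.49 (SE 0.06, adjusted p = 0.00023), and the highest knockout value was that of replicate 2, opposite to the peptidases Ctsd, Ctsb and Ctsl. Lamp2 (chrX:38401357-38456454, minus strand), needed for fusion of autophagosomes with lysosomes, had a signal of 169, 169, 166 and 137 across WT libraries and 204, 197, 209 and 213 across knockout libraries. The groups of Lamp2 were separate although WT replicate 4 was well below the other WT libraries (0.36, SE 0.07, adjusted p = 0.0028). Without WT replicate 4 the log2 fold change of Lamp2 was 0.29 (adjusted p = 0.00033).

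Scarb2 (chr5:92441314-92506833, minus strand) encodes LIMP-2, the receptor that brings β-glucocerebrosidase to the lysosome. Scarb2 signal was 139, 148, 154 and 140 across WT libraries and 193, 185, 189 and 183 across knockout libraries. The knockout libraries were close to each other and above all WT libraries (log2 fold change 0.37, SE 0.04, adjusted p = 0.00021). The tetraspanin gene Cd63 (0.05, 95% interval -0.09 to 0.19) and Mcoln1, which encodes the lysosomal calcium channel TRPML1 (0.16, -0.05 to 0.37), were not called.

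Of the 5 genes of the V-ATPase, all had a higher mean in LRP1 eKO and 3 were called. Atp6ap1 (chrX:74297097-74304721, plus strand) encodes an accessory subunit needed to assemble the membrane part of the pump. Atp6ap1 signal was 98.1, 98.5, 96.6 and 89.9 across WT libraries and 126, 131, 117 and 122 across knockout libraries. The groups did not overlap (log2 fold change 0.37, SE 0.05, adjusted p = 0.00036). Atp6v1a, for the catalytic subunit that hydrolyses ATP, averaged 60.3 ± 6.57 in WT and 75.7 ± 6.11 in LRP1 eKO (0.33, adjusted p = 0.012). Atp6v0d1, for a subunit that joins the ATP-hydrolysing part to the membrane part, averaged 90.2 ± 3.97 and 105 ± 10.8 (0.21, adjusted p = 0.036), and its groups overlapped: WT replicate 4 and LRP1 eKO replicate 1 had the same value, 95.9. Its call was lost without any one of 5 of the 8 libraries, with an adjusted p between 0.067 and 0.089. Atp6v1h, for a regulatory subunit (0.15, 95% interval 0.01 to 0.29, adjusted p = 0.075), and Atp6v1b2, for an ATP-binding subunit (0.03, -0.04 to 0.11), were not called.

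The 3 genes of regulation and sorting went 3 ways. Grn (chr11:102430315-102437048, plus strand) encodes progranulin, a secreted protein that is also delivered to lysosomes. Grn signal was 166, 163, 158 and 149 across WT libraries and 252, 228, 253 and 237 across knockout libraries. It had the smallest adjusted p of the 35 genes (log2 fold change 0.61, SE 0.05, adjusted p = 1.9e-05), and its lowest knockout library was well above its highest WT library. Tfeb (chr17:47737030-47792419, plus strand), which encodes the transcription factor that drives many lysosomal genes and is regulated mainly by its movement into the nucleus, had a signal of 11.7, 11.97, 12.5 and 13.9 across WT libraries and 10.4, 9.002, 9.71 and 8.53 across knockout libraries. Tfeb was thus lower in every knockout library than in every WT library (75.2% of WT, log2 fold change -0.38, SE 0.07, adjusted p = 0.0029). The activity of the TFEB protein was not measured by these libraries. M6pr (chr6:122308720-122317680, plus strand), for the cation-dependent mannose 6-phosphate receptor, had a signal of 59.2, 58.9, 57.8 and 58.6 across WT libraries and 58.9, 53.2, 59.7 and 54.9 across knockout libraries. The M6pr groups overlapped, with a log2 fold change of -0.05 (95% interval -0.15 to 0.06).

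LRP1 eKO replicate 2 held the lowest knockout value for 19 of the 35 genes, against 24.4% of all genes tested, and the highest for 11, against 36.6%. Of the 19 genes called higher, replicate 2 was the lowest knockout library for 11 (Ctsb, Ctsl, Ctsz, Ctsd, Gla, Hexa, Lipa, Npc1, Npc2, Lamp2 and Grn), the highest for 5 (Ctsa, Tpp1, Lamp1, Atp6v0d1 and Atp6ap1), and in between for Asah1, Scarb2 and Atp6v1a. By role, replicate 2 was lowest for 8 of 10 peptidases and 5 of 7 glycosidases but for 0 of 5 pump genes and 1 of 5 membrane genes. Replicate 2 was also the lowest knockout library for macrophage markers: their mean log2(signal + 1) over 16 genes was 1.65 to 2.22 in WT, 1.08 in LRP1 eKO replicate 2 and 3.12 to 3.84 in the other 3 knockout libraries. The mean of 9 sinusoidal endothelial markers went alike (0.92 to 1.17, 1.01, and 1.63 to 2.14, in the same order). It was lowest in replicate 2 also for pan-endothelial markers (1.78, against 1.93 to 2.24) and hepatocyte markers (2.75, against 2.83 to 2.97). So was that of stellate cell and fibroblast markers (5.10, against 5.17 to 5.28). For skeletal muscle markers replicate 3 was lowest (0.97, with 1.00 in replicate 2). All 10 tested macrophage markers were lowest in replicate 2 among the knockout libraries, 1 of the 10 (Csf1r) was called higher, and for none did the groups separate. Of the markers that define Kupffer cells, Timd4 and Clec4f were below 1 in every library, Clec4f being listed at 0 in all 4 WT libraries and above 0 in all 4 knockout libraries. Marco averaged 1.11 in WT and 5.61 in LRP1 eKO, Cd5l 3.03 and 12.3, and Vsig4 0.72 and 3.90, with overlap of the groups for all 3. Lysosomal hydrolases are strongly expressed in macrophages.

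**Figure D3:**
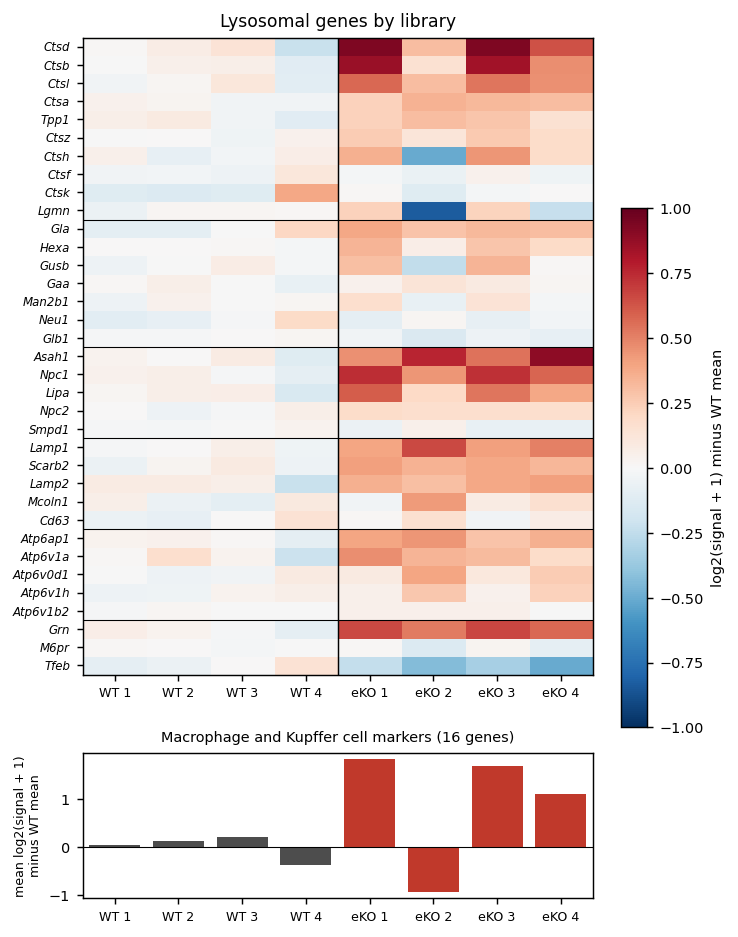
Each library's log2(signal + 1) minus the WT mean for the 35 lysosomal genes, grouped by role (top, colour scale from -1 to 1), and the mean of 16 macrophage and Kupffer cell markers on the same scale of differences (bottom). LRP1 eKO replicate 2 is paler than the other knockout libraries for Ctsd, Ctsb and Ctsl, is below WT for Ctsh, Lgmn and Gusb, and is the only knockout library in which the macrophage markers lie below the WT mean.

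Without LRP1 eKO replicate 2, 19 genes were called higher and 1 lower, the log2 fold change of Ctsd was 0.83 and that of Ctsb 0.72, and Ctsh was called higher (0.33, adjusted p = 0.0074) while the call of Atp6v0d1 was lost (adjusted p = 0.067). When the mean of the macrophage markers was added to the model as a covariate, 21 of the 35 genes were called higher and 2 lower. The shares of all genes tested that were called without replicate 2 or with the covariate were not computed. With the covariate the log2 fold change was smaller for Ctsd (0.48, adjusted p = 0.00070), Ctsb (0.35, adjusted p = 0.0028), Lipa (0.30, adjusted p = 0.0042) and Ctsl (0.38, adjusted p = 0.00068). It was larger for Lamp1 (0.57, adjusted p = 3.6e-05), Asah1 (0.73, adjusted p = 0.00058) and Atp6v0d1 (0.31, adjusted p = 0.00090). Mcoln1 (0.30, adjusted p = 0.0033) and Atp6v1h (0.22, adjusted p = 0.012) were then called higher and Lgmn was called lower (-0.49, adjusted p = 0.0013). All 20 genes called without the covariate were also called with it, in the same direction. The covariate was 1.65 to 2.22 in WT, 1.08 in LRP1 eKO replicate 2 and 3.12 to 3.84 in the other knockout libraries. Within the groups it thus varied mostly through replicate 2, and this fit cannot separate it well from genotype. How much of the differences came from macrophage RNA was therefore not tested by it. The part of the pan-endothelial and sinusoidal endothelial markers, which were in part called higher as given above, and of the hepatocyte and muscle markers in the differences of the lysosomal genes was not tested.

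**Figure D4:**
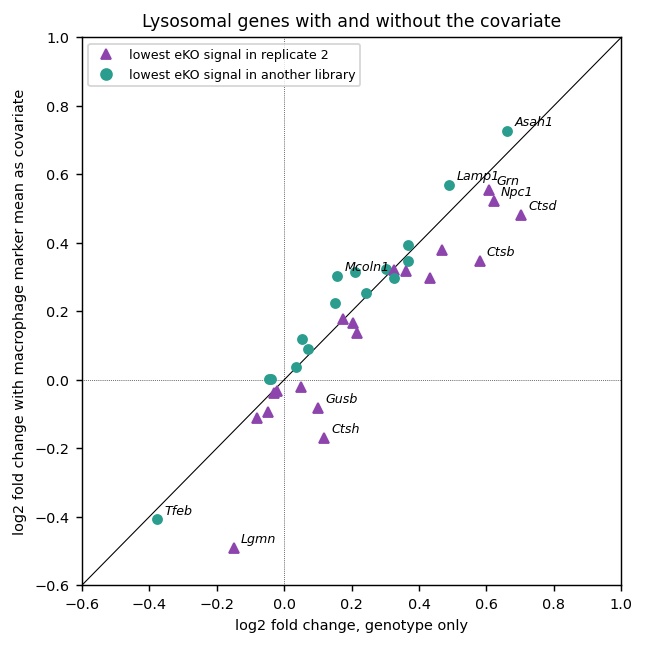
Log2 fold change of each of the 35 lysosomal genes with genotype as the only term (x axis) and with the mean macrophage marker signal as a covariate (y axis); the diagonal marks equal values, and triangles mark genes whose lowest knockout signal was in LRP1 eKO replicate 2. Ctsd, Ctsb and Ctsh lie below the diagonal, Lamp1, Asah1 and Mcoln1 lie above it, and Lgmn shows the lowest value with the covariate, -0.49.

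Other genes of the lysosome were described in the same way. Of 84 further lysosomal genes in the table, 78 were tested. In LRP1 eKO, 25 of the 78 were called higher (32.1%, against 19.0% of all genes tested) and 10 lower (12.8%, against 22.2%), with a median log2 fold change of 0.13. With array weights, which give less weight to more variable libraries, 38 were called higher and 11 lower. The share of all genes tested that was called with array weights was not computed, so these counts cannot be set against 19.0% and 22.2%. The hydrolases and their cofactors accounted for 13 of the calls higher and 4 of the calls lower among 31 tested, the pump subunits for 6 and 0 among 13, the membrane proteins for 2 and 2 among 13, and the sorting and regulatory genes for 4 and 4 among 21. The difference between these shares and those of the 35 genes was not tested.

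Further genes with the smallest adjusted p came from several of these roles. Aga, for the enzyme that removes asparagine-linked sugars, averaged 64.0 ± 2.09 in WT and 85.4 ± 4.00 in LRP1 eKO (log2 fold change 0.41, adjusted p = 0.00013). Clcn7, for the chloride and proton exchanger of the lysosomal membrane, averaged 18.9 ± 0.77 and 25.2 ± 1.08 (0.39, adjusted p = 0.00026). Sumf1, for the enzyme that activates sulfatases, averaged 19.7 ± 0.85 and 26.1 ± 1.23 (0.39, adjusted p = 0.00034). Aga, Clcn7 and Sumf1 were higher in every knockout library than in every WT library. Laptm4b, for a transmembrane protein of late endosomes and lysosomes, went the other way, with 190 ± 5.89 in WT and 129 ± 15.9 in LRP1 eKO (-0.56, adjusted p = 0.00062).

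**Figure D5:**
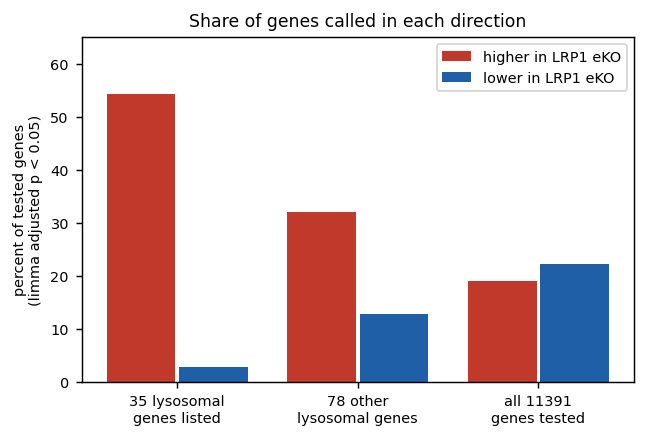
Percent of tested genes called higher or lower in LRP1 eKO (limma adjusted p below 0.05; bars start at 0) for the 35 lysosomal genes, for 78 other lysosomal genes and for all 11391 genes tested. The bars for higher calls stand at 54.3, 32.1 and 19.0%, and those for lower calls at 2.86, 12.8 and 22.2%.

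Some of these genes share sequence with other annotated genes, and how reads were divided among them is not stated. Stretches of 50 bases that also occur in another gene's transcripts made up 35.8% of those of Ctsd (shared most with Gm49369), 27.2% of Ctsl (Gm47123), 24.6% of Cd63 (Cd63-ps), 15.7% of Ctsa (Pltp), 15.5% of Ctsb (Fdft1), 10.6% of Hexa (Tmem202) and 10.2% of M6pr (M6pr-ps). For the other 28 genes the share was below 10%. Stretches were pooled over all coding transcripts of a gene and matched on either strand, so the share is not the size of an error in the signal. How far the values of these 7 genes are affected was not tested.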

How the data were processed

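mRNA of liver cells selected as ECs, in which endothelial markers were low, was sequenced in 4 WT and 4 LRP1 eKO libraries (TruSeq). The authors deposited a quantile-normalized signal for 22520 protein-coding genes. The unit before that step is not given in the sources used here: the submitters' processing notes name TopHat2, Cufflinks and mm10, and the study's methods name STAR, featureCounts and edgeR. Column totals were 484445 to 485947 by construction, so depth is unknown and no counting error can be given. Very low values are non-whole, so reads could not be recovered. Quantile normalization gives the libraries nearly equal distributions over all genes, so values are relative to the other genes of a library. Fold changes are on the log2(signal + 1) scale and understate changes of low genes.

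The 11391 genes whose signal reached 1 in 4 or more libraries were tested with limma 3.58.1 (R 4.3.3), using its trend option and adjusting p by Benjamini-Hochberg over all of them; single genes were also tested by exact permutation over 70 assignments. Alternatives were pseudocounts of 0.1 and 5, other filters, no trend, robust moderation, array weights, centring, a replicate block, a macrophage covariate and each library left out. Values per library are given for the 12 called genes with the largest change, which include Lamp1, Npc1 and Tfeb, and for M6pr, and the 5 further genes with the smallest adjusted p were to be named, of which 1 is not reported here. The genes, lists and tests were chosen with earlier results of these data known. In the lists, 3 genes were matched by older symbols, and Galns was not analysed here. Gene positions are from GENCODE M21, promoters from RefSeq.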

Additional observations from a re-analysis of the deposited data

Results flagged for a closer look

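In 7 of 70 groups of 4 libraries (35 genes, 2 genotypes) the most extreme library stood apart from the others by more than Dixon's critical value for 4 samples, and chance gives about 3.5. The value is the gap to the nearest library as a share of the group's range. WT replicate 4 was the highest WT library for Ctsf (0.854) and Ctsk (0.967) and the lowest for Lamp2 (0.898). WT replicate 1 was the lowest for Lgmn (0.915). In LRP1 eKO, replicate 2 was the highest for Smpd1 (0.867), replicate 1 the highest for Npc2 (1.0, the other 3 libraries having equal values), and replicate 4 the lowest for Atp6v1b2 (0.971). Of these genes Npc2 and Lamp2 were called higher, and both calls held without the library that stood apart.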

How the results depend on the processing

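The table gives no read depth, so precision rests on 4 libraries per group. Of the 20 called genes, 19 kept their call and direction in all 19 alternatives. Atp6v0d1 lost it without a filter (adjusted p = 0.062) and on leaving out any one of WT replicates 1, 2 and 3 and LRP1 eKO replicates 2 and 4 (0.067 to 0.089). Genes called higher numbered 18 to 21 in the alternatives, 18 to 19 with 1 library left out, and genes called lower numbered 2 with the macrophage covariate. Further lysosomal genes called higher numbered 38 with array weights and 19 to 27 with 1 library left out (lower, 7 to 10). Shares of all genes tested were not computed for the alternatives. The replicate block left 19 genes higher and 1 lower, and 24 further genes higher. Correlations of same-numbered libraries' deviations were -0.086, -0.13, 0.178 and 0.038, within the range of unlike numbers (-0.264 to 0.212). They thus showed no pairing by number, but 4 libraries per group cannot exclude one. Chosen after seeing the data, the fit without WT replicate 4 and LRP1 eKO replicate 2 gave 21 genes higher.

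Signs turned for 8 genes. With the macrophage covariate, Ctsh was -0.17, Gusb -0.0822, Man2b1 -0.0208, Neu1 0.002 and Smpd1 0.0021. With array weights, Ctsf was 0.022, Ctsk 0.0999, Lgmn 0.0005 and Neu1 0.0018. With 1 library left out, Ctsf ranged from -0.0428 to 0.0163, Ctsk from -0.078 to 0.0965 and Neu1 from -0.0815 to 0.0177, the highest without WT replicate 4, and Lgmn from -0.277 to 0.0776, which was its value without replicate 2 of LRP1 eKO. Without both libraries, Ctsf was 0.0302, Ctsk 0.128 (adjusted p = 0.027) and Lgmn 0.0825. Of these values Ctsk's last one was the only one called; the cause was not tested.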

Other observations

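Further lysosomal genes, chosen here after their values were seen, showed differences of their own. The Ragulator complex and the Rag GTPases hold mTORC1 at the lysosomal surface. Of the Ragulator genes, Lamtor4 averaged 53.2 ± 7.59 in WT and 39.3 ± 2.29 in LRP1 eKO (log2 fold change -0.42, adjusted p = 0.0044, limma). Lamtor3 (-0.20, adjusted p = 0.0096) and Lamtor1 (-0.15, adjusted p = 0.042) were also called lower, while Lamtor2 (-0.10, adjusted p = 0.18) and Lamtor5 (-0.11, adjusted p = 0.18) were not called. Of the Rag GTPase genes, Rragd rose from 1.37 ± 0.24 to 2.50 ± 0.25 (0.57, adjusted p = 0.00084) and Rragc from 56.8 ± 1.65 to 64.7 ± 5.38 (0.18, adjusted p = 0.035), while Rraga was not called (-0.08, adjusted p = 0.20). Tfe3, for a relative of TFEB, averaged 22.8 in WT and 26.4 in LRP1 eKO and was not called (0.20, adjusted p = 0.073, limma). Mitf, for another relative, was not tested and averaged 0.80 and 1.09, with no overlap of the groups.

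Ctss and Cd68, also chosen after their values were seen, were not called. Ctss, for cathepsin S, was 17.7 to 37.3 in WT, 11.0 in LRP1 eKO replicate 2 and 78.1 to 133 in the other knockout libraries (log2 fold change 1.11, 95% interval -0.39 to 2.61). Cd68, a lysosomal membrane protein used as a macrophage marker, was 21.8 to 38.01, 15.4 and 69.8 to 125 in the same order (0.98, -0.26 to 2.23).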
